A study of Homo sapiens with 15 samples.

Results

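The HLA class II genes HLA-DRA, HLA-DRB1, HLA-DPA1, HLA-DPB1, HLA-DMA and HLA-DMB, together with CD74 and CIITA, were followed in breast cancer cells with an inducible RBM47 transgene. The members were chosen by name, and 8 of 8 were present among the 23368 genes of the count table. Class II molecules are pairs of an alpha and a beta chain that carry peptides from endosomes to the surface of a cell, where CD4+ T cells read them. CIITA is the coactivator that switches on the whole group by docking onto the factors bound at their promoters, and interferon gamma is the best known signal that turns CIITA on. Class II is typical of professional antigen presenting cells, while epithelial and tumor cells may carry it or lack it.

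RNA was sequenced from 3 clones, each grown out of a single cell, with 1 library per clone and doxycycline dose (0, 1, 2.5, 5 and 25 ng/ml), 15 libraries in all. WT6 and WT10 cells carried wild type RBM47, an RNA-binding protein, and MUT3 cells carried RBM47-I281fs, a truncated form found in a brain metastasis. The transgene was FLAG-tagged and driven by a doxycycline-responsive promoter in all clones, the untreated libraries included. The labels give MDA231, a triple negative breast cancer line, for each clone, whereas the methods of the study derive WT10 and MUT3 from its brain metastatic derivative 231-BrM2 and WT6 from another line, CN34-BrM2. Each transgene is therefore represented by 1 or 2 clones, and for WT6 the clone and the parental line cannot be told apart. No condition was replicated. The 5 doses of a clone took the place of replicates, and the p-values measure the scatter of these libraries around a trend with dose.

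Reads on genes numbered 14955172 to 44771871 per library, and 3 reads, used as the floor of detection, corresponded to 1.19 to 4.09 normalized counts. RBM47 itself rose from 258 to 10425 normalized counts between 0 and 25 ng/ml in WT6 cells, from 168 to 19877 in WT10 cells and from 73.8 to 22084 in MUT3 cells. At 1, 2.5 and 5 ng/ml it had 3137, 8094 and 3966 in WT6 cells, so it did not follow the order of the doses there. The same doses gave 827, 2822 and 8134 in WT10 cells and 92.1, 336 and 949 in MUT3 cells. The epithelial and mesenchymal markers summed to between 79162 and 129766 normalized counts per library, with vimentin, keratin 8 and keratin 18 leading. Other markers of this list were low. The epithelial marker CDH1 had 1.10 to 19.9 normalized counts in WT6 cells, 0.96 to 19.7 in WT10 cells and 0 to 1.11 in MUT3 cells. EPCAM ranged from 136 in MUT3 cells to 456 in WT6 cells, and ESR1 had at most 12.0 in any library. The 12 leukocyte markers summed to between 2148 and 5360, nearly all of it from CD68, which tumor cells also express. CD14 had 44.9 to 73.5 normalized counts in WT6 cells, 15.5 to 29.9 in WT10 cells and 26.3 to 39.95 in MUT3 cells, and CSF1R was detected in every library. PTPRC (22 reads) and CD3D (15 reads) were seen in WT6 cells at low counts, while MS4A1 and CD3E were among the markers at 0 reads in every library. Their part in the results was not tested.

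Promoter sequence was available here for 6 of the 8 members, in 7 windows of 250 bases before to 50 bases after a start site (RefSeq, GRCh38.p14). HLA-DRA and CIITA had no window in the table. Class II promoters are known for an X box, bound by the RFX complex, which is followed at a set distance by a Y box, bound by NF-Y. The letters AGNNACNNA were searched for the X box and ATTGG for the Y box, on both strands. The stretches below are shown because each holds a match to the X letters, the Y letters or both. They are written 5′ to 3′ on the strand of the gene, and the capitals mark matches on either strand, which can run into each other or past the end of the stretch.

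HLA-DRB1, chr6:32589878-32589937, minus strand: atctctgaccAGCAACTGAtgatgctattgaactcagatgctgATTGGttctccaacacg
HLA-DMA, chr6:32953161-32953220, minus strand: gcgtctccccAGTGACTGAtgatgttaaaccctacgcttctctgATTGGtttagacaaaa
HLA-DMB, chr6:32941067-32941126, minus strand: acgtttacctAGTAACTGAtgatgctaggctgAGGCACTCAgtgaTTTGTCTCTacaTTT
HLA-DPA1, chr6:33073699-33073758, minus strand: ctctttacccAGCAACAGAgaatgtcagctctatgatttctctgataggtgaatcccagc
HLA-DPB1, chr6:33075871-33075930, plus strand: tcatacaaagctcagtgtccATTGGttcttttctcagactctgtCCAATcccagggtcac
CD74, chr5:150412924-150412983, minus strand: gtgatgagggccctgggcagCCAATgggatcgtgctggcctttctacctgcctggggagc

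HLA-DRB1 and HLA-DMA held the X letters followed on the same strand by the Y letters, with 24 and 25 bases between them. Such a pair, with 15 to 35 bases between, was found in 0.783% of all 35116 promoter windows, against 39.9% for the X letters alone and 34.6% for the Y letters alone. The X letters began 79 bases upstream of the start in HLA-DRB1, 113 in HLA-DMA, 88 in HLA-DMB and 99 in 1 of the 2 windows of HLA-DPA1. In HLA-DRB1, HLA-DMA and HLA-DMB they were followed directly by TGATG, which was the case in 0.0541% of all windows, a motif chosen after these stretches had been seen. HLA-DMB had 3 matches to the X letters on the strand of the gene, of which the first is the one placed here. It also held the Y letters on the opposite strand, past the end of the stretch shown. HLA-DPB1 and CD74 had the Y letters but not the X letters in the window, in CD74 on the opposite strand only. These matches are descriptions of the reference sequence and were not tested for binding, and class II sequence differs between people.

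Each of the 8 genes lay lower in WT6 cells than in WT10 and MUT3 cells at every dose. The plot of all libraries by dose shows this gap. Some of the genes were near absent in WT6 cells, while CD74 had 231 to 414 normalized counts there. Values are normalized counts, that is reads on the gene scaled by a factor for each library, and are given in the order 0, 1, 2.5, 5 and 25 ng/ml.

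**Figure D1:**
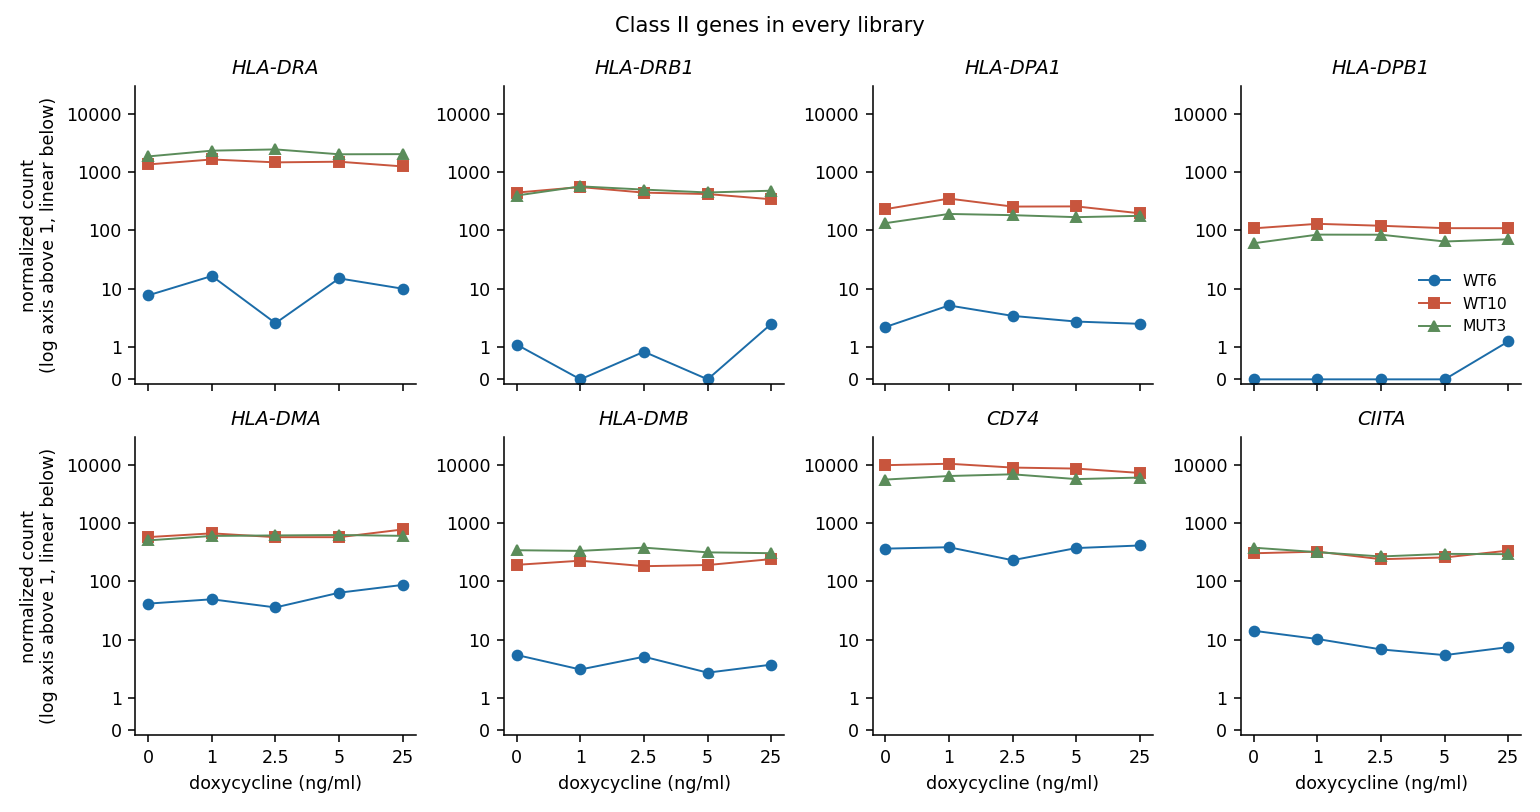
Normalized count (vertical axis, logarithmic above 1 and linear below) of each class II gene against doxycycline dose (horizontal axis, ng/ml, evenly spaced), with 1 point per library and lines joining the libraries of a clone. WT6 libraries lie below all WT10 and MUT3 libraries in every panel, with HLA-DPB1 at 0 in 4 of 5 WT6 libraries.

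CIITA, the coactivator of the group, had 14.2, 10.3, 6.82, 5.45 and 7.47 normalized counts in WT6 cells. In WT10 cells it had 304, 324, 240, 258 and 338, and in MUT3 cells 379, 317, 268, 297 and 293. The 2 clones from 231-BrM2 overlapped, while the highest WT6 library stayed far below the lowest of either. The summed reads of CIITA were 31.9-fold higher in WT10 than in WT6 after scaling (95% exact interval 23.4 to 44.6, counting error only) and 34.5-fold higher in MUT3 (25.3 to 48.2). CIITA lies on chromosome 16, 10960079 to 11036878 of hg19, plus strand. The annotation places DEXI and 1 other gene on the opposite strand across part of it and 1 gene on the same strand. Since it is not stated whether the libraries keep the strand, reads from such neighbours cannot be told apart.

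HLA-DRA encodes the alpha chain shared by all HLA-DR molecules and showed a wide gap. It had 7.67, 16.5, 2.56, 14.99 and 9.97 normalized counts in WT6 cells, from 45 reads in all. The WT10 libraries held 1348, 1641, 1463, 1502 and 1247, and the MUT3 libraries 1850, 2322, 2440, 2013 and 2026. MUT3 cells were thus the highest at each dose, without overlap with WT10. The scaled reads were 149-fold higher in WT10 than in WT6 (111 to 204) and 218-fold higher in MUT3 (163 to 299).

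HLA-DRB1, the main partner of HLA-DRA, had 1.10, 0, 0.853, 0 and 2.49 normalized counts in WT6 cells, which is 4 reads over 5 libraries and under 3 reads in each. The counts were 444, 552, 443, 418 and 341 in WT10 cells and 395, 567, 499, 446 and 478 in MUT3 cells, with overlapping ranges. The ratio to WT6 was 500 for WT10 (195 to 1837) and 549 for MUT3 (214 to 2016). HLA-DRB1 shares much sequence with HLA-DRB5 and the other DRB genes, so the split of reads among them is uncertain.

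Per kilobase of transcript, both HLA-DP chains stood below both HLA-DR chains in WT10 and MUT3 cells. HLA-DPA1, the alpha chain, had 2.19, 5.15, 3.41, 2.72 and 2.49 normalized counts in WT6 cells (15 reads), 230, 350, 255, 257 and 196 in WT10 cells and 133, 191, 182, 168 and 177 in MUT3 cells. HLA-DPB1, the beta chain, gave a single read in WT6 cells, at 25 ng/ml, where it stood at 1.25. It had 108, 129, 120, 109 and 109 normalized counts in WT10 cells and 60.03, 84.3, 84.0, 64.3 and 70.2 in MUT3 cells. Both DP chains were higher in WT10 than in MUT3 at each of the 5 doses. HLA-DPA1 was 79.2-fold higher in WT10 than in WT6 (47.9 to 142) and 52.4-fold higher in MUT3 (31.6 to 94.1). With 1 read in the denominator, the ratio for HLA-DPB1 was 522 for WT10 with an interval of 93.5 to 20661, and 334 for MUT3 with an interval of 59.6 to 13239. The 2 genes overlap on opposite strands of chromosome 6 (33032346 to 33048552 and 33043767 to 33057473 of hg19), so that unstranded reads in the overlap could fall to either.

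HLA-DM, the endosomal exchange factor that helps class II molecules to swap their placeholder peptide, is built from HLA-DMA and HLA-DMB. HLA-DMA kept a clear level in WT6 cells, with 41.6, 49.4, 35.8, 64.0 and 87.2 normalized counts from 245 reads. In WT10 cells it had 576, 667, 574, 573 and 778, and in MUT3 cells 505, 603, 615, 626 and 604, so that these clones overlapped. Its gap to WT6 was the smallest among the 8 genes, 11.6-fold for WT10 (10.2 to 13.3) and 11.1-fold for MUT3 (9.78 to 12.8). HLA-DMB had 5.48, 3.09, 5.12, 2.72 and 3.74 normalized counts in WT6 cells (19 reads), 193, 227, 183, 191 and 241 in WT10 cells and 343, 334, 380, 315 and 305 in MUT3 cells. MUT3 cells were higher than WT10 cells at every dose. The ratio of HLA-DMB to WT6 was 49.1 for WT10 (31.3 to 81.9) and 81.0 for MUT3 (51.7 to 135). HLA-DMA overlaps BRD2 on the opposite strand, and an annotated gene without a symbol overlaps both DM genes on the same strand.

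CD74, the invariant chain that guides class II molecules to endosomes, had the highest level per kilobase of transcript of the 8 genes in every clone. It had 365, 386, 231, 373 and 414 normalized counts in WT6 cells, 9844, 10427, 8964, 8612 and 7251 in WT10 cells and 5576, 6420, 6871, 5688 and 6044 in MUT3 cells. The order WT10, MUT3, WT6 held at each dose. The scaled reads were 25.9-fold higher in WT10 than in WT6 (24.6 to 27.2) and 17.8-fold higher in MUT3 (16.9 to 18.7). CD74 lies on chromosome 5 (149781200 to 149792532 of hg19), away from the class II cluster of chromosome 6.

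Counted across all genes tested with limma, 8 of 8 members were lower in WT6 than in WT10 at an adjusted p under 0.05, where 38% of the 13637 genes were lower. The same held for 8 of 8 against MUT3, where 38.3% of genes were lower. CIITA, HLA-DRB1, HLA-DPA1, HLA-DPB1 and HLA-DMB had a mean under 10 normalized counts in WT6 cells and passed the filter on the mean of all libraries only through the other clones, so they had to differ, and the counts of members and the medians are given as descriptions. HLA-DRA, HLA-DMA and CD74 passed it in each clone. CD74 differed by -4.69 on the log2 scale between WT6 and WT10 (SE 0.12, adjusted p = 2.2e-14) and by -4.13 between WT6 and MUT3 (SE 0.12, adjusted p = 5.6e-14). HLA-DMA differed by -3.55 from WT10 (SE 0.14) and -3.45 from MUT3 (SE 0.14). The HLA-DRA difference was -7.18 from WT10 (SE 0.33) and -7.74 from MUT3 (SE 0.33). The median difference of the 8 members was -5.68 from WT10 and -5.67 from MUT3, against a median of 0.01 over all genes in both comparisons. The 2 comparisons share the WT6 libraries. The ranges over the 5 doses did not overlap for 8 of 8 members between WT10 and WT6, where 46.6% of genes did not overlap, and for 8 of 8 between MUT3 and WT6, where 54.6% did not.

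Between WT10 and MUT3 cells, which the study derives from the same line, the members did not move as a block. Of the 8 genes, 5 differed at an adjusted p under 0.05, where 48.8% of all genes did, so the share of members called was close to that of the whole table. CD74, HLA-DPA1 and HLA-DPB1 were higher in WT10 (3 of 8, against 23.8% of all genes). HLA-DRA and HLA-DMB were lower (2 of 8, against 25% of all genes). The median difference over the 8 was 0.00, against -0.01 over all genes. The ranges did not overlap for 5 of 8 members, where 37.1% of all genes did not.

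**Figure D2:**
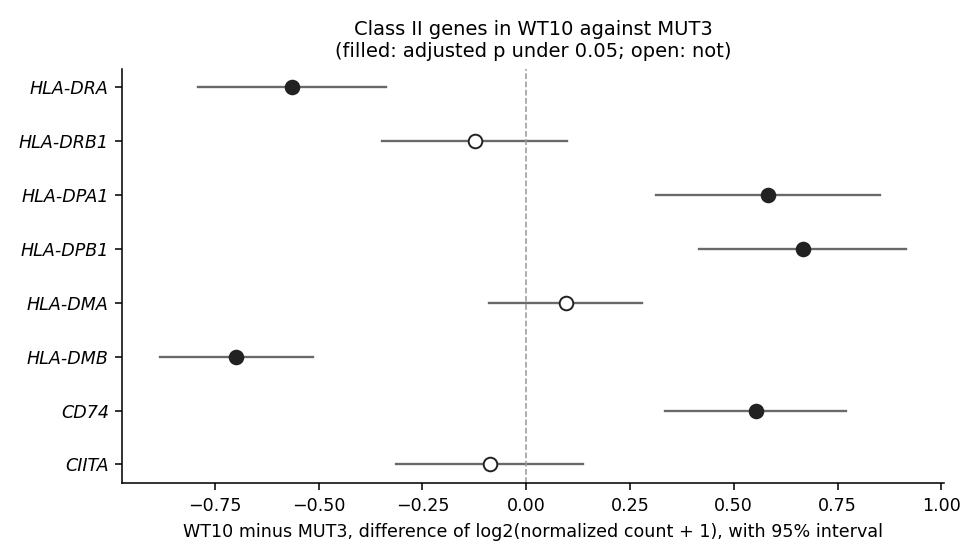
Difference between WT10 and MUT3 on the scale of log2(normalized count + 1) for each class II gene (points), with its 95% interval from the limma fit (bars). The 5 filled points are past the adjusted p of 0.05, with HLA-DPA1, HLA-DPB1 and CD74 on the right and HLA-DRA and HLA-DMB on the left of 0.

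HLA-DPB1 was higher in WT10 by 0.67 on the log2 scale (SE 0.12, adjusted p = 2.3e-04). HLA-DPA1 was higher by 0.58 (SE 0.13, adjusted p = 0.0014), and CD74 by 0.55 (SE 0.10, adjusted p = 3.6e-04). HLA-DMB differed by -0.70 (SE 0.09, adjusted p = 7.7e-06) and HLA-DRA by -0.56 (SE 0.11, adjusted p = 4.3e-04). With the libraries at 5 and 25 ng/ml left out, HLA-DPA1 and HLA-DPB1 were no longer called, at 0.55 (adjusted p = 0.0739) and 0.46 (adjusted p = 0.133). Without precision weights, under which the few WT6 reads count as much as any others, the difference of HLA-DRA was the same and its adjusted p was 0.213.

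No difference between these clones was called for HLA-DRB1, HLA-DMA and CIITA. The difference of HLA-DRB1 was -0.12, with a 95% interval of -0.35 to 0.10. For HLA-DMA it was 0.09 (-0.09 to 0.28), and for CIITA -0.09 (-0.31 to 0.14). Each interval reaches to both sides of 0, and equal levels were not shown.

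Ratios between the members were taken within each library between normalized counts per kilobase of the canonical transcript (GENCODE 44), for 4 pairs chosen after the values had been seen, and are given without a test. HLA-DRA over HLA-DRB1 ran from 2.94 to 3.62 in WT10 cells (median 3.27) and from 4.05 to 4.84 in MUT3 cells (median 4.47). HLA-DMA over HLA-DMB ran from 3.63 to 3.98 in WT10 cells and from 1.82 to 2.45 in MUT3 cells. CD74 over HLA-DRA ran from 4.29 to 5.46 in WT10 cells and from 2.07 to 2.25 in MUT3 cells. None of these 3 ranges overlapped between the clones. HLA-DPA1 over HLA-DPB1 ran from 4.22 to 6.34 and from 5.07 to 6.12, which overlapped. The size of this ratio, but not its comparison between clones, depends on the length used for HLA-DPB1 (3991 bases, 774 of them coding).

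**Figure D3:**
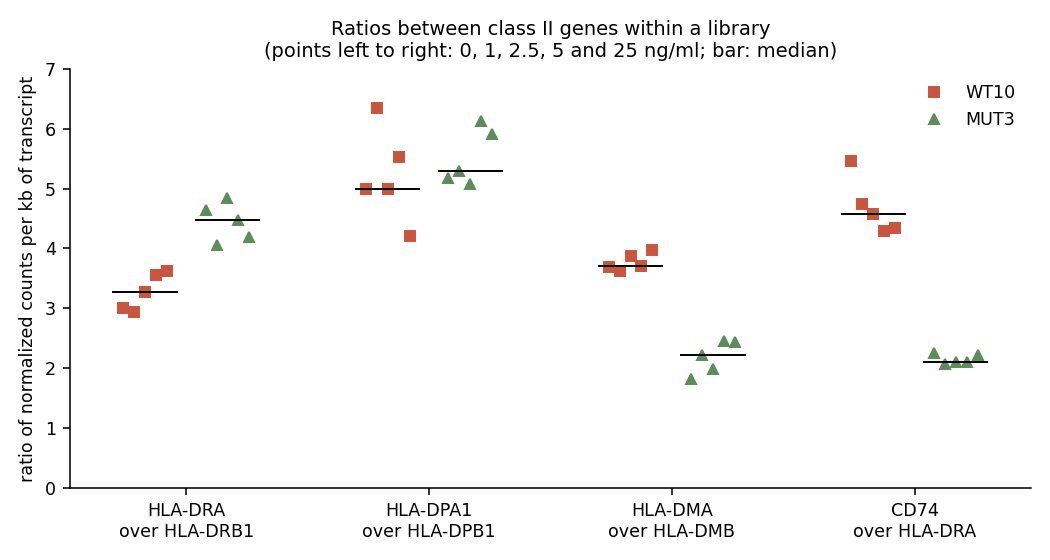
Ratio of normalized counts per kilobase of transcript between pairs of class II genes within each library (points; squares WT10, triangles MUT3, ordered by dose), with the median of 5 libraries as a bar. The WT10 and MUT3 points are apart for HLA-DRA over HLA-DRB1, HLA-DMA over HLA-DMB and CD74 over HLA-DRA, and overlap for HLA-DPA1 over HLA-DPB1.

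The order of the levels per kilobase of transcript was similar in WT10 and MUT3 cells. In WT10 cells CD74 came first with a mean of 5456 normalized counts per kilobase, followed by HLA-DRA (1166), HLA-DMA (580), HLA-DRB1 (359), HLA-DMB (153), HLA-DPA1 (151), HLA-DPB1 (28.8) and CIITA (18.2). HLA-DMB and HLA-DPA1 overlapped over the 5 libraries, and the other neighbours did not. In MUT3 cells the order was CD74 (3702), HLA-DRA (1725), HLA-DMA (540), HLA-DRB1 (390), HLA-DMB (249), HLA-DPA1 (99.8), CIITA (19.4) and HLA-DPB1 (18.2). There HLA-DMA overlapped with HLA-DRB1, and CIITA with HLA-DPB1. In WT6 cells CD74 (214) and HLA-DMA (50.9) led without overlap. HLA-DRA (8.36), HLA-DMB (2.99), HLA-DPA1 (1.87), HLA-DRB1 (0.73) and CIITA (0.55) followed, each overlapping with its neighbours among these 5. HLA-DPB1 (0.06, from a single read) came last. It lay at 0 to 0.31, below every CIITA library but within the range of HLA-DRB1, 0 to 2.04. CIITA has a canonical transcript of 16061 bases, of which 3390 code for protein, so its place depends on the length used. The same holds for HLA-DPB1, with 3991 bases, of which 774 code for protein. Per kilobase of coding sequence CIITA came 6th in WT6 cells, with 2.61. On that scale HLA-DPB1 (93.8) stood above CIITA (91.7) in MUT3 cells, and HLA-DPA1 (330) above HLA-DMB (262) in WT10 cells.

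Few changes of the members with the dose of doxycycline passed the test. A slope is the change of log2(normalized count + 1) per unit of log2(dose + 1), fitted for each clone, and only HLA-DRA, HLA-DMA and CD74 passed the filter of a mean of 10 in each clone. In WT6 cells 1 of these 3, HLA-DMA, had a slope at an adjusted p under 0.05, where 57.5% of the 12644 genes did (29.2% upwards). Its slope was 0.24 (SE 0.08, adjusted p = 0.0123). The call was lost without the library at 25 ng/ml (0.16, adjusted p = 0.426) and with trends of each library in transcript length and GC content removed (0.09, adjusted p = 0.361). It was also lost with RBM47 in place of the dose (0.10, adjusted p = 0.453) and with each clone fitted alone (0.24, adjusted p = 0.0506).

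In WT10 cells 0 of 3 members had a slope, where 20% of genes did. CD74 fell from 9844 normalized counts without doxycycline to 7251 at 25 ng/ml, a slope of -0.11 (SE 0.05, adjusted p = 0.117) that did not pass. With length and GC trends removed it did, at -0.11 (adjusted p = 0.0156), and likewise with the clone fitted alone (-0.11, adjusted p = 0.00567). It also passed without the WT6 library at 2.5 ng/ml (adjusted p = 0.0155) or at 5 ng/ml (adjusted p = 0.0376), with the slope itself at -0.11 in both. HLA-DRA had a slope of -0.04 in WT10 cells (95% interval -0.15 to 0.07). In MUT3 cells 0 of 3 members had a slope, and so did 0% of all genes with limma, where 295 genes were under 0.05 without adjustment. On the recovered reads, edgeR called 1 gene and DESeq2 called 8 there, none of them among the 3 members tested.

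The difference between the mean wild type slope and the MUT3 slope was called for 0 of 3 members, where 24.6% of genes were called, and that between WT6 and WT10 for 0 of 3, where 14.4% were. For CD74 the first difference was -0.03 (-0.16 to 0.09), for HLA-DMA 0.12 (0.00 to 0.24, adjusted p = 0.139) and for HLA-DRA 0.00 (-0.23 to 0.24). The share of read pairs that HTSeq assigned to no gene moved with dose as well. Between 0 and 25 ng/ml it went from 57.6% to 59.6% in WT6 cells and from 56.6% to 58.7% in WT10 cells. In MUT3 cells it went from 58.8% to 56.5%. Whether such pairs lay outside genes, and the part of this share in the slopes, were not tested.

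In a wider fit over the 13637 genes with an overall mean of at least 10, all 8 members were included. HLA-DMA in WT6 cells was again the only one with a called slope, at 0.25 (adjusted p = 0.0129). In WT10 cells the slopes ran from -0.11 for HLA-DRB1 (adjusted p = 0.128) and CD74 (adjusted p = 0.115) to 0.08 for HLA-DMA. In MUT3 cells they ran from -0.07 for CIITA to 0.05 for HLA-DPA1. In WT6 cells CIITA, HLA-DRA and the other near absent genes had wide intervals, and few reads.

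**Figure D4:**
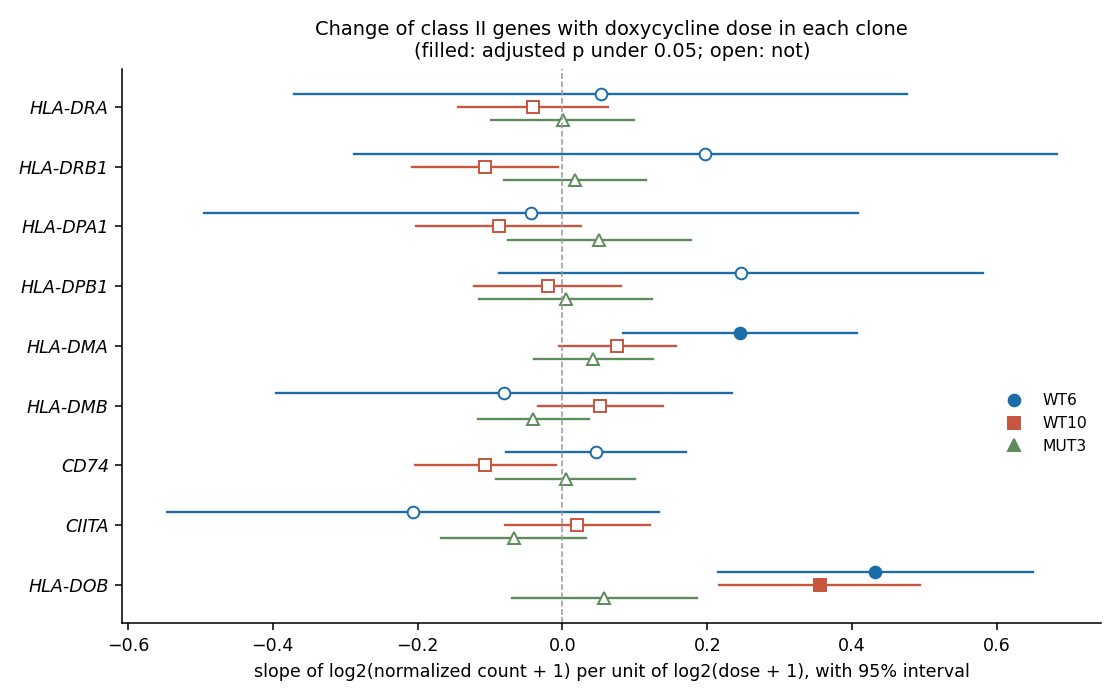
Slope of log2(normalized count + 1) per unit of log2(dose + 1) for the 8 class II genes and HLA-DOB in each clone (points), with its 95% interval (bars), from the fit over genes with an overall mean of at least 10. Filled points, past an adjusted p of 0.05, are HLA-DMA in WT6 cells and HLA-DOB in WT6 and WT10 cells.

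Of the 11 other class II genes listed beside the members, 2 passed the filter for levels. HLA-DRB5, a second DR beta chain, had 83.9 to 122 normalized counts in WT10 cells, 87.5 to 135 in MUT3 cells and 1 read in WT6 cells. HLA-DOB encodes the beta chain of HLA-DO, which restrains HLA-DM. It had 7.67, 8.24, 5.97, 16.3 and 27.4 normalized counts in WT6 cells, 30.3, 32.8, 43.9, 41.7 and 92.2 in WT10 cells and 56.3, 68.8, 58.3, 72.6 and 70.2 in MUT3 cells. The libraries at 25 ng/ml were the highest in both wild type clones, while the MUT3 libraries stayed within a narrow range. HLA-DOB had a slope of 0.42 in WT6 cells (SE 0.10, adjusted p = 0.0019) and 0.35 in WT10 cells (SE 0.07, adjusted p = 0.0021), against 0.06 in MUT3 cells. A slope was called for 57.5% of all genes in WT6 cells and for 20% in WT10 cells. Without the library at 25 ng/ml of the clone the slope was 0.30 in WT6 cells (adjusted p = 0.256) and 0.20 in WT10 cells (adjusted p = 0.499), and neither was called. With RBM47 in place of the dose the slopes were 0.17 (adjusted p = 0.422) and 0.21 (adjusted p = 0.185), and again neither was called. A gene of the annotation overlaps it on the same strand. HLA-DOA, the partner of HLA-DOB, had at most 12.2 normalized counts in any library.

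The HLA-DQ chains were near absent. HLA-DQB1 had 6.43 to 15.8 normalized counts in MUT3 cells, 0 to 3.25 in WT10 cells and 0 reads in WT6 cells, and HLA-DQA1 gave 1 read in all 15 libraries. HLA-DRB3, HLA-DRB4 and HLA-DPB2 had no read in any library. Whether the mapping to hg19 could assign reads to these genes was not tested, so their absence from the cells was not shown.

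The other lists of the pathway were counted in the same fits. Of the 10 factors that act at class II promoters, 9 were lower in WT6 than in WT10 and 1, RFXANK, was higher, where 38% of all genes were lower. The median was -0.61 against 0.01 over all genes. All of them were detected in WT6 cells. RFX5, the DNA-binding subunit of RFX, had 860 to 1049 normalized counts there, 1269 to 1471 in WT10 cells and 1040 to 1159 in MUT3 cells. RFXAP, another subunit, had 41.1 to 49.4, 79.0 to 101 and 56.6 to 87.3. Over the 9 factors that were lower, the differences from WT10 ran from -1.13 for NFYA to -0.34 for CREB1, while those of the members ran from -8.01 to -3.55. Against MUT3, 9 factors were again lower in WT6 and RFXANK higher. Between WT10 and MUT3, RFX5, RFXANK and RFXAP were higher in WT10, 5 factors were lower and 2 were not called, where 23.8% of all genes were higher and 25% lower.

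The path from interferon gamma to CIITA was present in all clones except for the ligand. IFNG was at 0 reads in every library. Of the 9 other genes of this list, IFNGR1 and IFNGR2, the receptor chains, were higher in WT6 than in WT10 by 0.88 and 1.19 on the log2 scale, and 6 were lower, where 38% of all genes were. JAK1, a receptor-bound kinase, differed by -0.18. Of the interferon gamma induced genes, 7 of 13 passed the filter. Of these 7, 5 were lower in WT6 than in WT10 (GBP1, GBP2, GBP4, IRF1 and SOCS1), where 38% of all genes were. GBP4 had a mean of 0.73 normalized counts in WT6 cells and passed the filter only through the other clones, so it had to differ. WARS was not called. Against MUT3, 6 were lower, where 38.3% of all genes were, and WARS was higher. The 2 lists share members, IRF1 and SOCS1 among them.

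Class I antigen presentation was lower in WT6 cells as well. Of its 12 genes, 12 were lower in WT6 than in WT10 and 11 were lower in WT6 than in MUT3, with medians of -1.78 and -1.66, where 38% and 38.3% of all genes were lower. On the log2 scale the difference from WT10 was -3.72 for HLA-B, -1.57 for TAPBP and -0.25 for B2M, the common light chain. In WT6 cells 9 of the 12 rose with dose and 1 fell, where 57.5% of all genes had a slope and 29.2% rose. In WT10 cells 3 rose and 1 fell, where 20% of all genes had a slope, and in MUT3 cells 0 were called.

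The proteases and other helpers of class II peptide loading did not share a direction between WT6 and WT10 cells. Of 13 genes, 6 were higher and 6 lower in WT6 than in WT10, where 38% of all genes were lower. The median of the 13 was 0.10. The difference was 0.96 for CTSZ and -0.92 for CTSD, both endosomal proteases. CTSS, the cathepsin that trims the invariant chain, was named after its values had been seen. It had 2.19 to 7.47 normalized counts in WT6 cells, 445 to 1070 in WT10 cells and 380 to 458 in MUT3 cells, and it passed the filter only through the latter clones. Against MUT3, 8 of the 13 were higher and 3 lower in WT6, where 38.3% of all genes were lower. Between WT10 and MUT3, 10 of the 13 were higher in WT10 and 1 was lower, where 23.8% of all genes were higher and 25% lower. With dose, 9 of 12 rose and 1 fell in WT6 cells, where 57.5% of all genes had a slope and 29.2% rose. In WT10 cells 5 of 12 rose and 0 fell, where 20% of all genes had a slope, and in MUT3 cells 0 were called. The mean wild type slope minus the MUT3 slope was higher for 6 of 12 and lower for 1, where 24.6% of genes were called.

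The genes whose levels were most like those of HLA-DRA over the 15 libraries were BAHCC1, KIF16B and CYB5R2, with Pearson's r of log2(normalized count + 1) between 0.993 and 0.994. For CD74 they were HLA-DPB1, SH3RF2, PIK3CG, THBS2 and ITGBL1, at 0.992 to 0.995. These values rest on the gap between WT6 and the other clones, which many genes share. The other members correlated with HLA-DRA at 0.976 to 0.984, which placed them between rank 71 and rank 196 among 13636 genes.

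After the mean of each clone was subtracted, the genes most like HLA-DRA were SQRDL, ARHGAP4, ZSCAN16, EMP2 and PPAN, at 0.821 to 0.918. For CD74 they were C15orf37, EN2, CIAPIN1, VSTM2L and EMP2, at 0.849 to 0.890. CD74 stood at rank 6 for HLA-DRA, with r of 0.807. The other members ran from -0.658 for HLA-DMB (rank 13568 among 13636 genes) to 0.523 for HLA-DMA (rank 417). HLA-DRB1 was at -0.320, CIITA at -0.022, HLA-DPB1 at 0.167 and HLA-DPA1 at 0.278. The deviations of the WT6 libraries, which rest on few reads for these genes, enter these values.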

How the data were processed

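Poly(A) RNA was sequenced in pairs. The authors aligned the pairs to hg19 (STAR), tallied genes at default settings (HTSeq 0.5.4, from the submitters' processing notes) and scaled the libraries with DESeq. The annotation is not given in the sources used here. Each deposited value is a normalized signal, a read count over a DESeq size factor. The lowest value above 0 of a library was taken as the worth of 1 read, which gave whole reads for 100% of values (within 0.01). The number of columns without a sample was 0. The 5 HTSeq tallies, with 56.5% to 59.6% of read pairs assigned to no gene by HTSeq, were left out of all tests. Reads on genes had a median of 18152381 per library.

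The 8 genes and all lists were chosen with earlier results of these data known. Differences between clones and slopes on log2(dose + 1) were fitted over all genes on log2(normalized count + 1) by limma (3.58.1). Vooma gave precision weights, and the 6 coefficients left 9 residual degrees of freedom. Fold changes on this scale understate those of low genes. Levels were tested in 13637 genes with an overall mean of at least 10, slopes in 12644 genes with such a mean in each clone. P-values were adjusted by Benjamini-Hochberg over all genes of a contrast. The fit was tested on simulated data with 3 seeds. On the recovered reads, edgeR (4.0.16) and DESeq2 (1.42.0) were alternatives, beside TMM scaling, other pseudocounts and filters, and leaving out each library. Intervals of read ratios are exact binomial (Clopper-Pearson) and cover counting error only.

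Symbols were matched to GENCODE 44 on hg19 for 85.2% of genes, by symbol or older symbol, for transcript length and GC content. Named genes were the 8 members, up to 4 genes with the highest overall mean of each other list with any class II gene of it, and the 5 genes most correlated with HLA-DRA and with CD74. Some genes that the rule would name are not reported here. RFX5, RFXAP, CREB1, IFNGR1, the called interferon genes, CTSS, PTPRC, CD3D, CD3E, MS4A1, CDH1, EPCAM and ESR1 were named beyond this rule after their values had been seen. R was version 4.3.3 and Python 3.11.15 (pandas 2.3.3, scipy 1.17.1, numpy 2.4.6, matplotlib 3.10.9).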

Additional observations from a re-analysis of the deposited data

Results flagged for a closer look

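HLA-DOB, a class II gene outside the 8 members, changed with dose differently in the wild type clones and in MUT3 cells by the test of the difference itself. In that test 24.6% of the 12644 genes were called. The mean wild type slope minus the MUT3 slope was 0.33 on the log2 scale (SE 0.08, limma adjusted p = 0.0129). Leaving out the library at 25 ng/ml of WT6, WT10 or MUT3 moved it to 0.27, 0.25 and 0.28, with adjusted p of 0.111, 0.127 and 0.276. Without all 3 libraries at 25 ng/ml it was 0.15 (adjusted p = 0.617), and with RBM47 in place of the dose 0.16 (adjusted p = 0.374). The summed reads of HLA-DOB were 56 for WT6, 300 for WT10 and 312 for MUT3.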

How the results depend on the processing

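The number of members called lower in WT6 was 8 of 8 under each alternative against WT10 and against MUT3, except that a mean of at least 10 in each clone left 3 members to test, of which 3 were called. Between WT10 and MUT3 the count was 5, but 2 with that filter, 3 with the doses 0, 1 and 2.5 ng/ml alone and 4 without precision weights. Leaving out each library in turn kept 8, 8 and 5. The slope count in WT6 was 1, but 0 with length and GC trends removed (under either filter, that over all libraries being chosen after seeing the data), with each clone fitted alone, with RBM47 as the covariate and without 25 ng/ml, and 0 to 1 over the libraries left out in turn. In WT10 it was 0, but 1 (CD74) with length and GC trends removed under either filter and with the clone fitted alone, and 0 to 1 over the libraries left out. The count for the difference between the WT6 and WT10 slopes was 0 to 1 over them, with CD74 called (0.14, adjusted p = 0.0458) without WT6 at 2.5 ng/ml. Counts for the MUT3 slope and for the mean wild type slope minus MUT3 were 0 under every alternative run. No called difference of a member changed sign. The difference of HLA-DPB1 between WT6 and WT10 ran from -9.25 to -3.61 over the alternatives and that of HLA-DRB1 from -9.12 to -5.36, and the cause was not tested. No replicate numbers exist to pair libraries, and with the clones paired by dose (dose as a block) 8, 8 and 5 members were called. TMM moved the scaling of a library by -0.04 to 0.03 on the log2 scale. Depth limits the members in WT6 cells, where HLA-DRB1 and HLA-DPB1 had under 3 reads in every library.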
